A study of Mus musculus with 25 samples.

Results

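The SMC1 regions described here are the places where a subunit of the cohesin ring was found on the genome of DN3 thymocyte-like cells that lack TCF-1 (TCF1 KO) or carry an empty vector (EV). The 2 SMC1 peak lists of TCF1 KO cells and the 2 of EV cells were merged, at a gap of 0 bp, into 117362 regions, and each region was classed by the lists that held a peak in it. A total of 10868 regions (9.26%) were held by both KO lists and no EV list and are called KO-only. A total of 1137 (0.969%) were held by both EV lists and no KO list and are called EV-only, 51202 (43.6%) were held by all 4 lists, and the other 54155 were held by the remaining combinations. The classes follow from the lists themselves, so their presence or absence in a list is a description with no test.

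Both groups are Scid.adh cells, a mouse cell line from a thymic lymphoma of a Scid mouse, which is used as a model of the DN3 stage of T cell development. One group carries the TCF1 KO treatment label and the other an empty vector, and the empty vector cells are called wild type in the sample titles. How the knockout was made, and whether the KO cells are 1 clone, is not given in the sources used here, and nothing says that the 2 lists of a group come from separate cultures. The series holds 25 chromatin immunoprecipitation samples, 18 from DN3 cells and 7 from NIH-3T3 fibroblasts, and only the 4 DN3 SMC1 lists define the regions.

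Cohesin is a ring-shaped complex of SMC1, SMC3, RAD21 and a STAG subunit that is loaded onto chromatin with the help of NIPBL, extrudes loops of DNA and stops at sites bound by the zinc finger protein CTCF. Cohesin also collects at active promoters and enhancers, which carry acetylation of histone H3 at lysine 27 (H3K27ac). TCF-1, encoded by Tcf7, is an HMG-box factor that T cell precursors need for commitment, and DN3 thymocytes are the precursors that rearrange Tcrb and pass the pre-TCR checkpoint.

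The sequences below are promoters that lay wholly inside a KO-only or an EV-only region, and they show what kind of DNA gained or lost an SMC1 call at a start site. They are RefSeq promoters of GRCm38.p6 (mm10), from 250 bases before to 50 after the start site, printed 5′ to 3′ on the strand of the gene. Capitals mark letters of 3 motifs searched on both strands, which are CTTTGAA or CTTTGAT for TCF and LEF factors, GGNGGCAG for the CTCF core and TGTGGT for RUNX factors. No overlap between different motifs was removed. The first 3 lay in KO-only regions. Etv5, an ETS transcription factor, is on the minus strand at chr16:22439521-22439820. Zcchc14, a zinc finger gene, is shown at a start inside its gene body on the minus strand at chr8:121651884-121652183. Trat1, a transmembrane adaptor of the T cell receptor, is on the minus strand at chr16:48772013-48772312.
Etv5: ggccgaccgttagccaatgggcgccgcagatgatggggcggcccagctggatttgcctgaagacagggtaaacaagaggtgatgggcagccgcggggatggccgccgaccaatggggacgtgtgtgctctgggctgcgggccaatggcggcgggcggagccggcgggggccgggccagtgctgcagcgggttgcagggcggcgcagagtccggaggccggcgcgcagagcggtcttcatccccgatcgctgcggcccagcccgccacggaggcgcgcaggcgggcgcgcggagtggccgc
Zcchc14: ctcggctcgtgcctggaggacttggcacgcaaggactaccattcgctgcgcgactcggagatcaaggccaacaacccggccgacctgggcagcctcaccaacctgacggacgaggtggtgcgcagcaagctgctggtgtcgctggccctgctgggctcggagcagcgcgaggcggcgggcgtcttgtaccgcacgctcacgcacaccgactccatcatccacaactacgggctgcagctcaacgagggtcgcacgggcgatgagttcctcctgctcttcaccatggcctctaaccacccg
Trat1: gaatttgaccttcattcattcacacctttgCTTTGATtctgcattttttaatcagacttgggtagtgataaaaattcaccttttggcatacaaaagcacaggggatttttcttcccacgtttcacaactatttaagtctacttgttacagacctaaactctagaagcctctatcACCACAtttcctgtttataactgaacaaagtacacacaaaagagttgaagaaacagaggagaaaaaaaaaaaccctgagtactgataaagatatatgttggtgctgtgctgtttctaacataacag

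The next 4 lay in EV-only regions. Ifitm2, an interferon-induced transmembrane gene, is shown at a start inside its gene body on the minus strand at chr7:140955912-140956211. Hmgn1, a nucleosome-binding protein gene, is on the minus strand at chr16:96127676-96127975. Agbl3, a deglutamylase gene, is on the plus strand at chr6:34780182-34780481. Srebf1, a regulator of lipid synthesis, is shown at its internal start on the minus strand at chr11:60210422-60210721. Agbl3 and Srebf1 were shown because a TCF-1 peak of both EV lists covered 300 and 198 of their 300 bases.
Ifitm2: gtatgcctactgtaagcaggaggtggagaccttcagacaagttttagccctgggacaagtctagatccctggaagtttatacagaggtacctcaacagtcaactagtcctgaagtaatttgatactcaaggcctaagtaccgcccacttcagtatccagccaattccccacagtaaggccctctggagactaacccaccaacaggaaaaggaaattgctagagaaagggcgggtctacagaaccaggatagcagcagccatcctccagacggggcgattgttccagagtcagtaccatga
Hmgn1: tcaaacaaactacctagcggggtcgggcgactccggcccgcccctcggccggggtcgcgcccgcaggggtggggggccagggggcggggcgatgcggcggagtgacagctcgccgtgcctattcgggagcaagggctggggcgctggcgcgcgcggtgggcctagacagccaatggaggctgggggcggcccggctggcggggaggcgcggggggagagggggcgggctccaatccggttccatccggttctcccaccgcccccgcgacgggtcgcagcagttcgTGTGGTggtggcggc
Agbl3: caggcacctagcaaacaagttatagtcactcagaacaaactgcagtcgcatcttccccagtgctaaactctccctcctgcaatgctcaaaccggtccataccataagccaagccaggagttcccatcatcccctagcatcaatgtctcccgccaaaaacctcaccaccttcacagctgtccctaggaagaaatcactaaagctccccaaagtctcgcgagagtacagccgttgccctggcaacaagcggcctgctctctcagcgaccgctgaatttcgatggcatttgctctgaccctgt
Srebf1: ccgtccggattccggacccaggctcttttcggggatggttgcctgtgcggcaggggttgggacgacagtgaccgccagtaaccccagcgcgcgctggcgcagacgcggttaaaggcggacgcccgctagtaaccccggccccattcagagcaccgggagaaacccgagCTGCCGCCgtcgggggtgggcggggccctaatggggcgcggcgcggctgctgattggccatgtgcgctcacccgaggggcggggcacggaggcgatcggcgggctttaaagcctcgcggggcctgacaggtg

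Of all 32851 promoters in the table, 103 were covered over at least 150 of 300 bases by a KO-only region, 42 by an EV-only region and 9684 by a region of all 4 lists. The TCF and LEF letters were in 8 of the 103 KO-only promoters (7.77%), 1 of the 42 EV-only promoters (2.38%) and 8.65% of all promoters. They were in 5.53% of promoters held by all 4 lists and in 115 of 2092 promoters (5.50%) covered as far by a TCF-1 site. These letters were thus no more frequent under TCF-1 sites than over all promoters. The RUNX letters were in 23.3% of KO-only promoters, 19.05% of EV-only promoters, 12.4% of promoters held by all 4 lists and 16.8% of all promoters. The CTCF core letters were in 15.5% of KO-only promoters, 19.05% of EV-only promoters, 15.8% of promoters held by all 4 lists and 12.6% of all promoters. The CG dinucleotide, the target of DNA methylation, separated the classes more: its median count per promoter was 6 in KO-only promoters, 13.5 in EV-only promoters and 22 in promoters held by all 4 lists, beside 7 over all promoters. KO-only promoters were as poor in CG as the table as a whole, and those held by all 4 lists were CG-rich. The printed promoters spread widely in both classes, with 37 CG in Etv5, 29 in Zcchc14 and 1 in Trat1 among KO-only promoters, and 4 in Ifitm2, 37 in Hmgn1, 10 in Agbl3 and 36 in Srebf1 among EV-only promoters. Trat1 held 1 match each of the TCF and LEF and of the RUNX letters, Hmgn1 held 1 RUNX match and Srebf1 1 match of the CTCF core. Etv5, Zcchc14, Ifitm2 and Agbl3 held none of the 3 motifs in these windows.

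The data are positions only. The SMC1 and CTCF lists give no height or score, so the length of a peak is the one measure of its size, and read depth is unknown. The cells were checked through H3K27ac in gene bodies: 11 of 12 T cell precursor markers carried it in all 4 DN3 lists, and 0 of 6 B cell markers did, 5 of which were at 0 in every list. Among myeloid markers 2 of 6 carried H3K27ac in all 4 lists, with a summed length of 22.5 and 22.9 kb in KO lists and 19.002 and 19.8 kb in EV lists, and Csf1r, Cd14, Lyz2 and Cebpa were at 0. Among fibroblast markers, which included the T cell gene Thy1, 2 of 6 carried it, with 25.2 and 24.4 kb in KO lists and 15.6 and 16.4 kb in EV lists, and Col1a1, Col1a2, Col3a1 and Pdgfra were at 0. The part of these cell types in the SMC1 results was not tested. No TCF-1 list of KO cells was analysed here, so the loss of TCF-1 was not checked. At Tcf7 itself (chr11:52246527-52283383), the targeted gene, SMC1 peaks within 10 kb covered 24475 and 19818 bp in KO lists, against 19775 and 12983 bp in EV lists, and the gene held 10 regions of all 4 lists and 1 KO-only region.

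SMC1 peaks were more numerous and longer in TCF1 KO cells. The KO lists held 88886 and 96416 peaks, against 70438 and 77587 in the EV lists. They covered 52.3 and 56.4 Mb in KO cells, against 37.5 and 38.7 Mb in EV cells. In both measures the lowest KO list was above the highest EV list. Peaks of 2 kb or more made up 2.56% and 2.58% of the KO lists, against 1.41% and 0.856% of the EV lists. The median peak was 407 and 405 bp in KO lists and 394 and 380 bp in EV lists. The share of peaks within 1 kb of a RefSeq start site was lower in KO cells, at 12.2% and 11.5%, against 14.9% and 14.1% in EV cells. With 2 lists a group, a two-sided exact permutation test cannot go below p = 0.333, so none of these differences can pass a threshold of 0.05. Of 12 values compared per list, 11 separated the groups at that p (adjusted p = 0.364). The number of reads behind each list is not given in the sources used here, so more cohesin sites and more sequenced fragments cannot be told apart.

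Most sites were shared. A peak of KO list 1 overlapped KO list 2 in 86.9% of cases, and 79.7% of KO list 2 peaks overlapped KO list 1. The EV lists overlapped in 81.6% of list 1 and 74.4% of list 2. Across the groups, 66.8% to 70.5% of KO list 1 peaks and 61.6% to 66.4% of KO list 2 peaks were in an EV list, whereas 84.3% to 88.8% of EV peaks were in a KO list. Thus an EV peak overlapped a KO list more often than a peak of the other EV list. By bases shared, the 2 KO lists were most alike (66.3% of their union), and pairs of a KO and an EV list shared 52.9% to 56.2%, close to the 58.3% of the 2 EV lists.

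**Figure D1:**
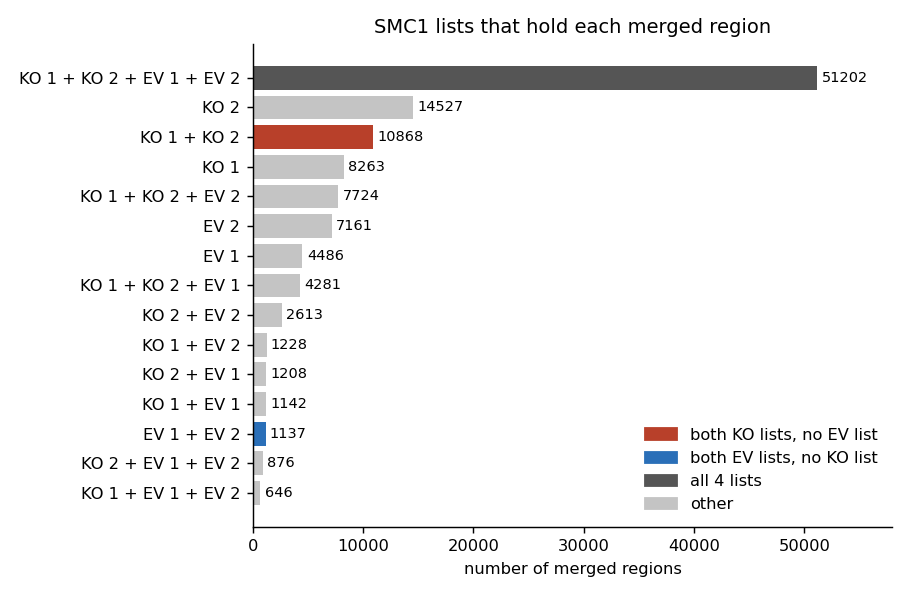
Number of merged SMC1 regions (horizontal axis) held by each combination of the TCF1 KO and EV lists (vertical axis). Regions of all 4 lists are the most frequent at 51202, KO-only regions number 10868 and EV-only regions 1137, fewer than the 7161 and 4486 held by a single EV list.

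Single-list regions were frequent: 14527 were in KO list 2 alone and 8263 in KO list 1 alone, against 7161 in EV list 2 alone and 4486 in EV list 1 alone. The 1137 EV-only regions were about as many as those shared by 1 KO and 1 EV list and no other, which ran from 1142 to 2613. The plot of regions by list combination shows both. A further 7724 regions were in both KO lists and EV list 2, and 4281 in both KO lists and EV list 1. Cutting every list to its 70438 widest peaks, the length of the shortest list, left 4163 KO-only and 2078 EV-only regions, so the ratio between the classes depends on list length. Leaving out a list relaxes a class, and KO-only regions then numbered 26201 without KO list 1, 20082 without KO list 2 and 18655 without EV list 2. EV-only regions numbered 1833 without KO list 1, 2058 without KO list 2, 8384 without EV list 1 and 5708 without EV list 2.

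Regions found in 1 condition were small. KO-only regions had a median merged width of 345 bp and EV-only regions of 391 bp, against 714 bp for regions of all 4 lists. Within its own list, the median KO-only peak stood at percentile 21.8 and 27.2 of width in KO lists 1 and 2, and the median EV-only peak at 25.6 and 28.4 in EV lists 1 and 2. Regions of all 4 lists stood between 59.9 and 71.0. The top ranked KO-only region was 2610 bp wide and lay within Zcchc14 (chr8:121623544-121626153), with 2166 and 2222 bp under peaks in the KO lists. The next 2 lay 159294 bp from Fat4, a protocadherin gene, and in Pigb, a gene of GPI anchor synthesis. Lpp, a gene for a LIM-domain adhesion protein, held a KO-only region of 2677 bp, the broadest by merged width. The top ranked EV-only region was broader and spanned 3191 bp (chr5:53504702-53507892), 47887 bp from Rbpj, the DNA-binding effector of Notch, with 3158 and 2667 bp under EV peaks and none under KO peaks.

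KO-only regions lay away from start sites. Only 392 of 10868 (3.61%; 95% exact binomial interval 3.26 to 3.97) were within 1 kb of one, against 107 of 1137 EV-only regions (9.41%; 7.78 to 11.3) and 17.1% of regions of all 4 lists. Such intervals cover counting error only, since regions share their lists. Gene bodies held 52.4% of KO-only, 56.2% of EV-only and 60.2% of all-4 regions. Distances beyond 10 kb from any gene were found for 33.5%, 30.3% and 24.4% of these classes. Of KO-only regions, 26.4% had another KO-only region within 10 kb, and 14.8% of EV-only regions had another of their class, where the more numerous class has more neighbours by number alone. Both classes lay near stable cohesin sites, a median of 7.06 kb for KO-only and 6.19 kb for EV-only regions. KO-only regions more often stood alone, with 9.07% over 100 kb from any region of all 4 lists, against 3.08% of EV-only regions.

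CTCF marked the KO-only regions more than the EV-only regions. A CTCF peak of both KO lists overlapped 26.4% of KO-only regions (25.6 to 27.3), 3.25% of EV-only regions and 70.3% of regions of all 4 lists. CTCF of both EV lists overlapped 8.69% of KO-only regions, 6.16% of EV-only regions (4.83 to 7.71) and 64.4% of regions of all 4 lists. The KO-only class carried CTCF more often in KO cells than in EV cells, and the EV-only class carried little in either. A CTCF site that was itself found in both KO lists and no EV list overlapped 903 KO-only SMC1 regions (8.31%), 3 EV-only regions (0.264%) and 1.86% of regions of all 4 lists. The reverse class of CTCF site, in both EV lists and no KO list, overlapped 4 KO-only (0.0368%) and 31 EV-only SMC1 regions (2.73%). Cohesin and CTCF classes thus went together in both directions. Leaving out KO list 2 lowered the KO-only share with CTCF to 15.9%. The EV-only share with CTCF was 9.91% without KO list 2, 3.15% without EV list 1 and 1.72% without EV list 2.

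**Figure D2:**
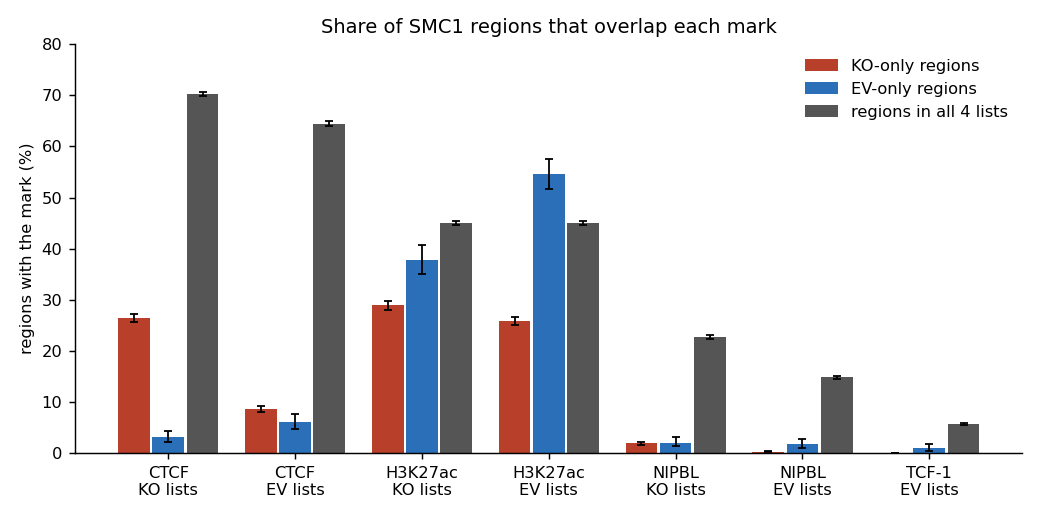
Share of KO-only, EV-only and all-4 SMC1 regions (%, bars) that overlap by at least 1 bp a peak present in both lists of the mark named on the horizontal axis, with 95% exact binomial intervals. CTCF of KO lists is on 26.4% of KO-only and 3.25% of EV-only regions, H3K27ac of EV lists is on 25.9% and 54.5%, and TCF-1 is on 0 and 1.06%.

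H3K27ac overlapped EV-only regions more often than KO-only regions when all 4 lists were used. H3K27ac of both EV lists overlapped 54.5% of EV-only regions (51.6 to 57.5), 25.9% of KO-only regions and 45.04% of regions of all 4 lists. H3K27ac of both KO lists was on 28.9% of KO-only regions (28.1 to 29.8) and 37.8% of EV-only regions. Acetylation found in EV cells alone (both EV lists and no KO list) was on 116 EV-only regions, or 10.2%, on 0.598% of KO-only regions and on 1.11% of regions of all 4 lists. Acetylation found in KO cells alone was on 1.65% of KO-only, 1.41% of EV-only and 0.904% of all-4 regions. Loss of H3K27ac in KO cells was thus more frequent at EV-only regions than at regions of all 4 lists. Without EV list 1, H3K27ac of both KO lists was on 33.6% of KO-only regions, and H3K27ac of both EV lists was on 31.2% of the 8384 EV-only regions, so the higher EV-only share did not hold without that list.

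Few regions of either class carried the loader. NIPBL of both KO lists was on 1.99% of KO-only regions, 2.11% of EV-only regions and 22.8% of regions of all 4 lists. NIPBL of both EV lists was on 0.350%, 1.85% and 14.9%. Width moves with this difference. Among regions 300 to 500 bp wide, a band chosen after the data were seen, NIPBL of KO lists was on 1.61% of KO-only, 1.86% of EV-only and 2.27% of all-4 regions. The same band kept the contrast in CTCF, with 31.2% of KO-only, 3.26% of EV-only and 81.9% of all-4 regions under CTCF of KO lists. In that band, H3K27ac of EV lists was on 22.9% of KO-only, 50.1% of EV-only and 11.5% of all-4 regions. Of KO-only regions, 25.6% had CTCF without H3K27ac, 28.1% H3K27ac without CTCF, 0.791% both and 45.4% neither in KO cells. Of EV-only regions, 5.45% had CTCF without H3K27ac, 53.8% H3K27ac without CTCF and 40.0% neither in EV cells. Without EV list 2, NIPBL was on 3.36% of KO-only regions, and without EV list 1 or EV list 2 it was on 0.692% or 0.701% of EV-only regions.

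Over whole lists the picture was flatter. CTCF of the same condition was under 49.9% and 48.2% of KO peaks, against 48.8% and 47.6% of EV peaks (exact two-sided permutation p = 0.667). CTCF sites of all 4 lists were under 40.9% and 38.5% of KO peaks, against 47.8% and 46.5% of EV peaks. At equal list length that difference was 0.0142 percentage points, with its sign turned. NIPBL of the same condition was under 15.0% and 13.9% of KO peaks, against 12.1% and 10.9% of EV peaks. The sites behind those shares numbered 12315 in KO cells and 8117 in EV cells. NIPBL sites of all 4 lists went the other way, under 9.46% and 8.75% of KO peaks, against 12.8% and 11.5% of EV peaks. H3K27ac of the same condition was under 42.8% and 39.6% of KO peaks, against 48.8% and 43.2% of EV peaks. SMC1 of untreated NIH-3T3 fibroblasts, in a single list, overlapped 40.8% of KO-only, 20.4% of EV-only and 77.4% of all-4 regions. KO-only sites were more often shared with this unrelated line than EV-only sites were.

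TCF-1 sites of EV cells seldom met regions that differed. Of 3107 sites found in both TCF-1 lists, 3046 (98.0%) overlapped an SMC1 region of all 4 lists, 12 an EV-only region and 0 a KO-only region. As shares of the regions, these were 12 of 1137 EV-only regions (1.06%; 0.547 to 1.84), 5.75% of regions of all 4 lists, and 0 of 10868 KO-only regions. That 0 allows a share of up to 0.0276% by a limit of 3 counts and up to 0.0339% by the exact interval, and the KO-only share was at most 0.0697% with 1 list left out. Width moves with these shares too. Among regions 300 to 500 bp wide, TCF-1 was on 4 of 645 EV-only regions (0.620%; 0.169 to 1.58). It was on 0.217% of all-4 regions (0.147 to 0.310) and 0 KO-only regions in that band. With a TCF-1 peak in either list, the band gave 2.79% of EV-only and 0.666% of all-4 regions. The order of EV-only and all-4 shares was thus turned in this band, but for sites of both TCF-1 lists the intervals overlapped. The 4 EV-only regions behind that share were at Mndal, Ifi202b and Catspere1, all on chromosome 1. Within 10 kb of a TCF-1 site lay 700 KO-only regions (6.44%), 116 EV-only regions (10.2%) and 12.3% of regions of all 4 lists. The EV-only share with TCF-1 was 0.203% without EV list 1 and 0.298% without EV list 2.

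The 12 EV-only regions under TCF-1 are few enough to name. On chromosome 1 lay 6 of them: 1 near Mndal and 3 in Ifi202b, both of the interferon-inducible p200 family, and 2 in Catspere1, a sperm ion channel subunit gene. Lef1, which encodes another TCF and LEF factor of thymocytes, had 1 such region 3800 bp from the gene (chr3:131105947-131106497), 323 and 528 bp long in the EV lists. The broad region near Rbpj was another, with no H3K27ac, CTCF or NIPBL of both lists on it. Lgr5, a Wnt target that encodes a receptor for R-spondins, had 1 (chr10:115586233-115587117) with 712 and 885 bp under EV peaks. The remaining 3 were at start sites, 166 bp from that of Agbl3, 144 bp from that of Srebf1 and 721 bp from that of Nampt, an enzyme of NAD salvage. Among the 12, only the regions at Agbl3, Srebf1 and Nampt had NIPBL of both EV lists at these regions, only 1 each at Ifi202b and Catspere1 had CTCF of both EV lists, and those at Lef1, Agbl3, Srebf1 and Nampt had H3K27ac of both EV lists.

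**Figure D3:**
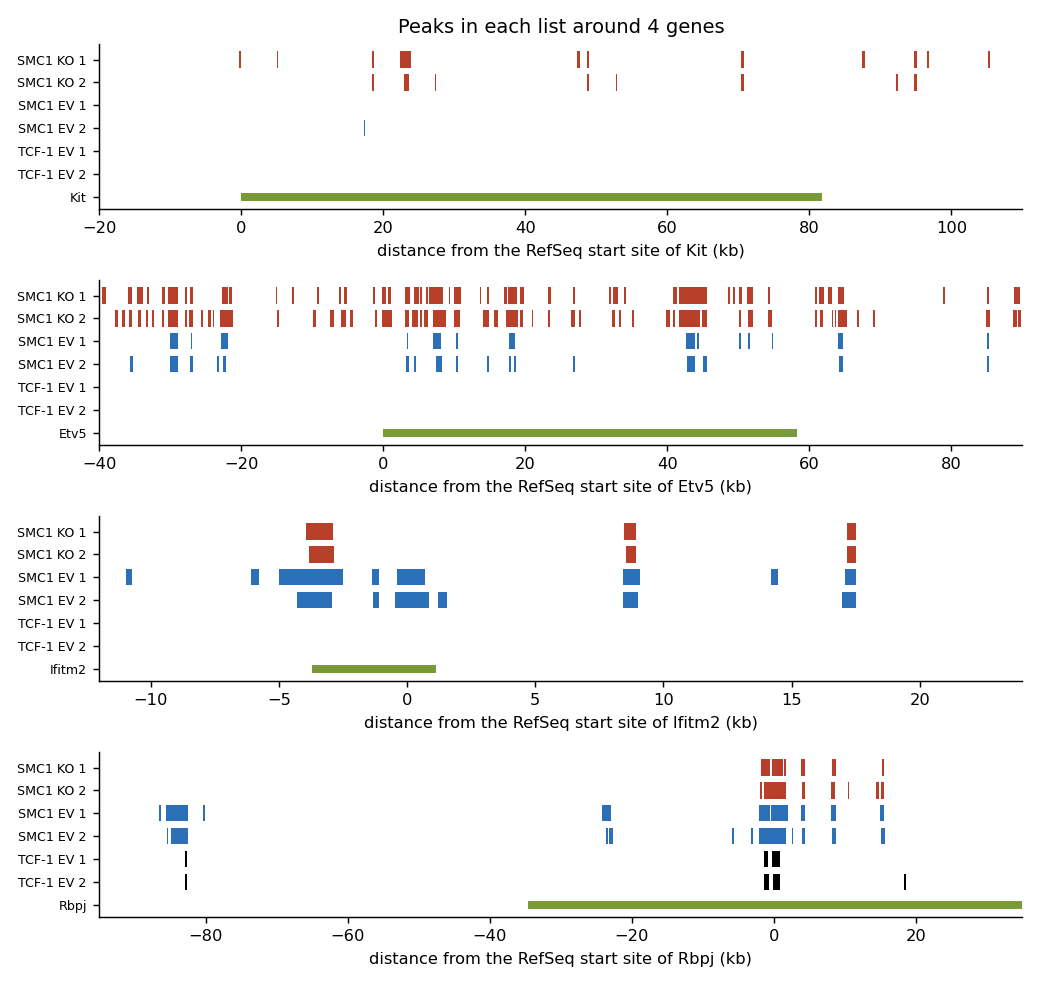
SMC1 peaks in each TCF1 KO (red) and EV (blue) list and TCF-1 peaks in each EV list (black), drawn to scale by distance from a start site in the RefSeq promoter table (kb, horizontal axis), with the gene body in green. The start site used lies inside the gene body at Ifitm2 and Rbpj. Kit has peaks almost entirely in KO lists, Etv5 has more and longer peaks in KO lists and no TCF-1 peak, Ifitm2 has added peaks in EV lists, and the 3191 bp EV-only region lies left of the Rbpj start site under a TCF-1 peak.

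Genes were taken as the gene body and 10 kb on each side. Of 21887 protein-coding genes, 5463 (25%) had a KO-only region, 844 (3.86%) had an EV-only region, 371 had both and 15770 (72.1%) had a region of all 4 lists. At least 5 KO-only regions were found at 199 genes and at least 10 at 36 genes. At least 2 EV-only regions were found at 106 genes and at least 3 at 25 genes. Genes with a KO-only region numbered 9512 without KO list 1 and 8643 without EV list 2, and genes with an EV-only region numbered 1431 without KO list 2, 1318 without KO list 1, 4778 without EV list 1 and 2693 without EV list 2.

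The genes with most KO-only regions were long. Lpp (chr16:24393350-24992578) had 42, Nfib, a nuclear factor I gene (chr4:82290173-82506751), had 30, Lrmda had 24 and Dgkg, a diacylglycerol kinase gene, had 23. Gse1 and Msra, a methionine sulfoxide reductase gene, had 20 each, and Aopep and the adaptor gene Nck2 had 17 each. Lef1 and Hivep3, a zinc finger gene, had 15 each. Lpp was covered by SMC1 peaks over 76944 and 94686 bp in KO lists, against 30449 and 25786 bp in EV lists. Its KO lists were above both EV lists, by 1.25 on the centred log2 scale, which did not pass the limma test (adjusted p = 0.130). By density, the leading genes were Hrh3, a histamine receptor, with 7 KO-only regions, Rnf19a, a ubiquitin ligase, with 10, Etv5 with 12, the T cell adaptor gene Sash3 with 6, the smooth muscle actin gene Acta2 with 6, and Olfml3, Pabpn1l, Trappc2l and the proteasome subunit gene Psma7 with 4 each. Gm38457 had 6.

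The 500-kb bin with most of them, 44 of its 128 regions, held Nfib alone among protein-coding genes. Bcl11b, a zinc finger factor that fixes T cell identity, lay in a bin with 38 KO-only regions of 198. The 2 bins before it on chromosome 12 had 28 of 144 and 27 of 163. Their protein-coding genes were Gm52008 and Gm46320, and whether their regions belong to Bcl11b was not tested. The bin of Lpp held 36, that of Hdac2 and Marcks 33, that of Mgmt and Ebf3 29 and that of Etv5 and Dgkg 27. EV-only regions did not reach such numbers. Their fullest bin, with Dyrk2, held 10, and the bin of Ifi202b and its relatives on chromosome 1 held 6 of 24 regions.

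No gene had more than 6 EV-only regions. Limch1, a gene for an actin-binding protein, had that number. Catspere1, the cadherin gene Cdh22, Cnst, the death-associated kinase gene Dapk1, the orphan nuclear receptor gene Esrrg, Ifi202b and Ksr1, a scaffold of the MAP kinase cascade, had 4 each. Catspere2 and Cep83 had 3 each. Dense EV-only genes were Ifitm2, Ptbp1, a splicing repressor gene, and its neighbour Plppr3, and the Fc receptor genes Fcrla and Fcgr2b, with 3 each, and Ifitm5, the Wnt inhibitor gene Sfrp5, Dlx6 and Gm39701 with 2 each. Limch1 was covered over 9434 and 8475 bp in KO lists, against 17298 and 9193 bp in EV lists. KO list 1 was above EV list 2, so the groups overlapped. The groups did not overlap in H3K27ac at Limch1, with 33968 and 35327 bp in KO lists, against 100468 and 104930 bp in EV lists.

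Of 28 T lineage regulators, 22 had one (78.6%) and 4 an EV-only region, against 25% and 3.86% of all protein-coding genes. The 28 genes held 2.50 KO-only regions per 100 kb of window, against 0.596 over all genes. Lef1 had 15, Runx1 11, Bcl11b, Tcf12 and Satb1 8 each, Ikzf1, Runx3 and Foxp1 6 each, Nfatc1 5, and Gata3 and Myb 3 each. The share over genes with any SMC1 region was 31.6%, and long windows such as that of Runx1 hold more regions of every class. The 28 genes also held more regions of all 4 lists, 5.80 per 100 kb against 3.56 over all genes. A raised KO-only density was not particular to them. It was 1.72 per 100 kb for glycolysis, 1.67 for cholesterol synthesis and 1.55 for housekeeping genes, though 0.363 for B cell markers. T cell receptor signalling genes had a KO-only region in 13 of 28 cases, with Ptprc at 9, Prkcb at 6 and Fyn and Sla at 5 each. Receptor and coreceptor components had one in 7 of 18 cases, cytokine receptors in 10 of 22, Notch pathway genes in 8 of 17, V(D)J recombination genes in 2 of 9, where Dntt, the template-independent polymerase, had 4. Chromatin regulators had one in 17 of 30 and cohesin and CTCF genes in 9 of 17 cases.

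Lists outside T cell biology gave mixed shares. A KO-only region was near 25% of all protein-coding genes and 31.6% of those with any SMC1 region. Several lists lay near these shares, among them B cell markers (22.2%), innate lymphocyte markers (28.6%) and Wnt pathway genes (28.6%). Adhesion and chemokine receptor genes and interferon response genes, at 33.3% each, did so too. Neuronal genes, with a median window of 616.9 kb, had a KO-only region in 16 of 20 cases but only 0.222 per 100 kb, below the 0.596 of all genes. Glycolysis and cholesterol synthesis had one at 9 of 17 and 9 of 18 genes, and housekeeping genes at 8 of 16. Of other blood lineages, myeloid markers had one at 5 of 14 genes, B cell markers at 4 of 18 and innate lymphocyte markers at 4 of 14. Stem and progenitor genes had one at 6 of 16, Wnt pathway genes at 6 of 21 and fibroblast genes at 2 of 20. Cell cycle genes had one at 9 of 24, Bcl2 family and death receptor genes at 7 of 20, adhesion and chemokine receptor genes at 7 of 21 and interferon response genes at 6 of 18. Olfactory receptors had one in 32 of 1110 cases, with 107 of 1110 holding a region of all 4 lists. EV-only regions were near 3 of 17 Notch pathway genes (Maml2 and Il2ra with 2 each and Rbpj with 1), 2 of 9 V(D)J recombination genes and 9 of 83 interleukin and receptor genes. No EV-only region was near the 1110 olfactory receptors, against 3.86% of all genes.

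Covered length per gene was then compared across the 4 lists with limma, on log2(bp under peaks + 500), with each list centred on its own median because KO lists ran 0.34 higher over all genes. Of 14900 genes with a mean of at least 500 bp, 89 (0.597%) were longer and 45 (0.302%) shorter in TCF1 KO cells at an adjusted p under 0.05. The calls came from 83 and 41 separate loci, since neighbours share windows. KO-only regions were present at 87 of the 89 genes and EV-only regions at 39 of the 45, as the same lists set both. The fit and the classes therefore rest on the same values. Without EV list 1 the counts were 1036 and 442, without EV list 2 they were 661 and 428, and 77 and 69 genes were shorter without KO list 1 and KO list 2.

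**Figure D4:**
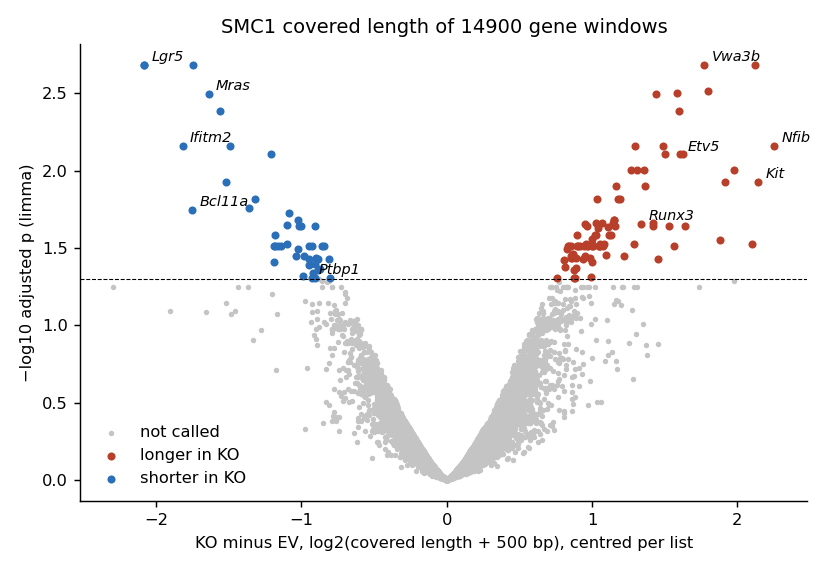
Each point is 1 of 14900 gene windows, with the KO minus EV difference in centred log2(covered length + 500 bp) on the horizontal axis and −log10 of the limma adjusted p on the vertical axis, where the dashed line marks 0.05. The 89 genes longer in KO are in red and the 45 shorter in blue.

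Transcription factor and receptor genes were among those that rose. Nfib was covered over 36106 and 38530 bp in KO lists, against 6933 and 4800 bp in EV lists, a log2 difference of 2.25 ± 0.26 (SE, n = 2 lists each, limma adjusted p = 0.00691). Kit, the receptor of stem cell factor, which falls silent as thymocytes commit, had 3739 and 2114 bp in KO lists, against 0 and 213 bp in EV lists (2.14 ± 0.26, limma adjusted p = 0.0118). Kit had no region of all 4 lists and no CTCF or NIPBL peak in any list. Its H3K27ac was 0 bp in both KO lists, against 191 and 481 bp in EV lists, so the mark did not go with cohesin there. Runx3, a RUNX factor of cytotoxic T cells, had 11952 and 9632 bp in KO lists, against 3240 and 2813 bp in EV lists (1.34 ± 0.20, limma adjusted p = 0.0220). Etv5 had 21332 and 23052 bp in KO lists, against 5505 and 5298 bp in EV lists (1.61 ± 0.19, limma adjusted p = 0.00784). Kit and Runx3 lost their calls at a pseudocount of 100 bp, where their adjusted p was 0.0504 and 0.0582.

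Further genes rose. Jakmip1, a gene for a microtubule and Janus kinase binding protein, had 12679 and 15232 bp in KO lists, against 1597 and 3508 bp in EV lists. Tent5c, a noncanonical poly(A) polymerase gene, had 2052 and 2895 bp in KO lists, against 305 and 0 bp in EV lists. In each of these genes both KO lists were far above both EV lists, which follows largely from their choice by called change. Both KO lists were above both EV lists at 66.9% of all tested genes before centring. Acvr1, a receptor of bone morphogenetic proteins, had 2691 and 2948 bp in KO lists, against 279 and 233 bp in EV lists. Vwa3b had 5833 and 5895 bp in KO lists, against 1008 and 945 bp in EV lists. Pcsk6, a proprotein convertase gene, had 9943 and 11174 bp in KO lists, against 1517 and 3415 bp in EV lists. Tmem132d and 2900026A02Rik, like Tent5c, had no region of all 4 lists. Tmem132d had 2290 and 4473 bp in KO lists, against 0 and 448 bp in EV lists, and 2900026A02Rik had 2232 and 2534 bp, against 230 and 0 bp. Tent5c, Pcsk6, Tmem132d and 2900026A02Rik lost their calls at a pseudocount of 100 bp, whereas Jakmip1, Acvr1 and Vwa3b kept theirs. Tmem132d also lost its call at equal list length. Lrp1b, Nell1, Trhde and Srrm4 were listed at 0 bp in both EV lists and had 1082 and 1170, 1160 and 1787, 1207 and 1367, and 881 and 1557 bp in the KO lists.

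Further genes were longer in both KO lists. Nfatc1, a calcium-responsive factor, had 7386 and 7334 bp in KO lists, against 2721 and 3412 bp in EV lists (limma adjusted p = 0.0419), a call that 6 of 12 alternative settings lost. Fas, the death receptor, had 5953 and 7147 bp in KO lists, against 1930 and 2875 bp in EV lists (limma adjusted p = 0.0299). Slc16a1, a lactate transporter, had 13112 and 15165 bp in KO lists, against 5107 and 5070 bp in EV lists (limma adjusted p = 0.0307). Fas lost its call in 3 of 12 settings and Slc16a1 in 5 of 12, which for Slc16a1 included leaving out either KO list. Zcchc14 had 19197 and 18769 bp in KO lists, against 4018 and 6869 bp in EV lists (limma adjusted p = 0.0229), a call lost at a pseudocount of 100 bp. Dgkg, next to Etv5, had 39687 and 36673 bp in KO lists, against 10075 and 10180 bp in EV lists (limma adjusted p = 0.0229), and it lost its call without KO list 1, without KO list 2 and at a pseudocount of 100 bp. Of the 15 neuronal genes tested, 1 was called, and their median log2 difference was 0.10. That gene, Csmd1, had 3190 and 3484 bp in KO lists, against 526 and 963 bp in EV lists. Csmd1 had no H3K27ac peak in any list, and its CTCF was 4983 and 4248 bp in KO lists, against 782 and 2001 bp in EV lists.

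**Figure D5:**
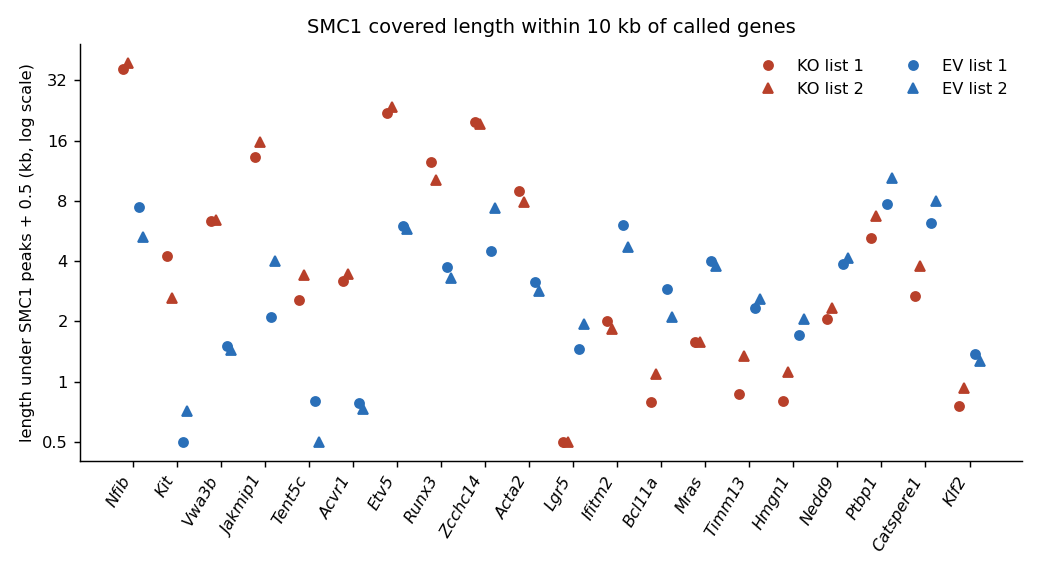
Length under SMC1 peaks within 10 kb of each gene plus 0.5 kb (log scale), in KO list 1 and 2 (red) and EV list 1 and 2 (blue), for 10 genes called longer in KO (left) and 10 called shorter (right). Before the 0.5 kb is added, Nfib has 36.1 and 38.5 kb in KO, against 6.93 and 4.80 kb in EV, and Lgr5 is at 0 in both KO lists.

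Fewer genes fell. Lgr5, with 1 TCF-1 site in its window, was listed at 0 bp in both KO lists, against 950 and 1439 bp in EV lists (limma adjusted p = 0.00206), and A930009A15Rik within it shares those peaks. CTCF at Lgr5 was also 0 bp in both KO lists, against 440 and 350 bp in EV lists. Bcl11a, a zinc finger factor of B cells and early progenitors, had 295 and 589 bp in KO lists, against 2420 and 1615 bp in EV lists (−1.75 ± 0.24, limma adjusted p = 0.0179). Its H3K27ac was 494 and 205 bp in KO lists, against 3850 and 4007 bp in EV lists. Both measures had no overlap between the groups at Bcl11a, which for SMC1 follows largely from its choice as a called gene. Mras, a RAS-related GTPase gene, had 1081 and 1076 bp in KO lists, against 3490 and 3294 bp in EV lists (−1.64 ± 0.16, limma adjusted p = 0.00317), and its H3K27ac was 0 bp in both KO lists, against 1197 and 1510 bp in EV lists. Catspere1 had 2176 and 3264 bp in KO lists, against 5724 and 7527 bp in EV lists, with 4 TCF-1 sites in its window. Ifi202b, with 7 TCF-1 sites, had 289 and 371 bp in KO lists, against 4504 and 1575 bp in EV lists, and missed the threshold (limma adjusted p = 0.0566).

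The Ifitm cluster of chromosome 7, whose proteins restrict viral entry, held called genes that share windows. Ifitm2 (chr7:140954837-140959686) had 1504 and 1340 bp in KO lists, against 5573 and 4233 bp in EV lists (−1.82 ± 0.20, limma adjusted p = 0.00691). Ifitm5, which is expressed in bone, had 1504 and 1340 bp in KO lists, against 4078 and 3900 bp in EV lists, and Pgghg beside it 786 and 761 bp, against 2706 and 3059 bp. Their windows overlap, so they are not separate observations. Ifitm6 had 750 and 839 bp in KO lists, against 2229 and 1503 bp in EV lists (limma adjusted p = 0.0388), a call lost at a pseudocount of 100 bp, without centring and at equal list length. H3K27ac at Ifitm2 was 0 and 1349 bp in KO lists, against 20226 and 20734 bp in EV lists. CTCF at Ifitm2 was 395 and 474 bp in KO lists, against 395 and 472 bp in EV lists, so the CTCF site kept its length. Ifitm3 had 750 and 839 bp of SMC1 in KO lists, against 1805 and 1166 bp in EV lists, and missed the threshold (limma adjusted p = 0.0953). No TCF-1 site of both lists lay within 10 kb of Ifitm2, Ifitm3 or Ifitm5.

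Genes picked with their values in view included Nedd9, Il2rb and Klf2. Nedd9, an adhesion scaffold gene, had 1563 and 1827 bp in KO lists, against 3389 and 3658 bp in EV lists (limma adjusted p = 0.00784). Il2rb, a chain of the receptors of interleukins 2 and 15, had 1765 and 2467 bp in KO lists, against 3719 and 4012 bp in EV lists (limma adjusted p = 0.0187). Klf2, which controls exit from the thymus, had 260 and 428 bp in KO lists, against 879 and 771 bp in EV lists (limma adjusted p = 0.0478), and its H3K27ac was 4210 and 5756 bp, against 15140 and 16121 bp in EV lists. At all 3 genes the highest KO list was below the lowest EV list, as at 2.1% of all tested genes. That separation follows largely from picking called genes and is no separate test. Hmgn1 had 305 and 623 bp in KO lists, against 1209 and 1563 bp in EV lists, and no H3K27ac peak in KO lists, against 1497 and 1519 bp in EV lists. Both Hmgn1 and Klf2 lost their calls at a pseudocount of 100 bp. Timm13, a mitochondrial import gene, had 367 and 843 bp in KO lists, against 1831 and 2074 bp in EV lists. Ptbp1 had 4738 and 6198 bp in KO lists, against 7188 and 9878 bp in EV lists, a call that 6 of 12 settings lost (limma adjusted p = 0.0493). Without centring, 18 of the 45 calls remained, and Klf2, Il2rb and Ptbp1 were not among them. Il2rb and Klf2 also lost their calls at equal list length, and Klf2 without KO list 1.

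By list, the calls were few, beside 0.597% longer and 0.302% shorter of all 14900 tested genes. T lineage regulators gave 2 longer (Runx3 and Nfatc1) and 0 shorter of 26 tested, with a median log2 difference of 0.30 and 22 of 26 above 0, beside a median of −0.01 over all 14900 genes. The receptor and coreceptor genes gave 0 of 17 in either direction with a median of 0.24, and T cell receptor signalling 0 of 28 with a median of 0.08. Notch pathway genes gave 0 of 17 with a median of −0.08, and Wnt pathway genes 1 shorter (Lgr5) of 18. Cytokine receptors gave Kit longer and Il2rb shorter of 20, and glycolysis Slc16a1 longer and Pfkp, a phosphofructokinase gene, shorter of 17. The cohesin and CTCF genes themselves gave 0 of 17 with a median of 0.01. Lef1, with 15 KO-only regions, had 18815 and 23748 bp in KO lists, against 8646 and 8554 bp in EV lists and did not pass (limma adjusted p = 0.0897). Bcl11b had 57315 and 53980 bp in KO lists, against 35508 and 24831 bp in EV lists (limma adjusted p = 0.506). Rbpj had 5351 and 6372 bp in KO lists, against 7891 and 7495 bp in EV lists (limma adjusted p = 0.105), its broad EV-only region being outside the window.

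H3K27ac was shorter in both KO lists than in both EV lists at 31 of the 45 genes, where 26.6% of all tested genes were, and longer at 3. At the 89 genes with longer SMC1, H3K27ac was longer in both KO lists at 46, where 23.5% of tested genes were, and shorter in both at 16. Those 16 are genes where SMC1 was longer and H3K27ac shorter. At Nfib H3K27ac was 156613 and 146009 bp in KO lists, against 188901 and 190592 bp in EV lists. At Etv5 it was 23448 and 21739 bp in KO lists, against 51973 and 52928 bp in EV lists. At Runx3 it was 14150 and 16030 bp in KO lists, against 26483 and 30329 bp in EV lists. These counts describe lists that differ in overall length, and no test of the overlap was run.

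CTCF and NIPBL lists were longer in KO cells over the genome, which sets the background for their counts. CTCF was longer in both KO lists at 63 of the 89 genes with longer SMC1, against 38.8% of tested genes, and shorter in both at 9 of the 45 genes with shorter SMC1, against 1.42%. NIPBL was longer in both KO lists at 37 of the 89 genes, against 23.2%, and shorter in both at 4 of the 45 genes, against 0.342%. SMC1 itself was longer in both KO lists at 66.9% of tested genes and shorter in both at 2.1%, before centring. A TCF-1 site of both lists lay within 10 kb of 9 of the 89 genes with longer SMC1 (10.1%), 11 of the 45 with shorter SMC1 (24.4%) and 25.5% of all tested genes. Genes with longer SMC1 were longer themselves, with a median of 68.7 kb, against 23.2 kb for those with shorter SMC1 and 23.2 kb for all tested genes.

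Among the 51202 regions of all 4 lists, no single region passed. The limma fit of log2(bp + 50), centred per list, called 0 regions in either direction (0%), with 5022 at an unadjusted p under 0.05, of which 2182 were wider and 2840 narrower in KO. Their median covered length was 573 and 608 bp in KO lists, against 454 and 454 bp in EV lists, before centring. Regions of each mark were wider in both KO lists. Regions with CTCF and no H3K27ac had medians of 450 and 493 bp in KO lists, against 382 and 393 bp in EV lists, and regions with H3K27ac and no CTCF had 783 and 793 bp, against 611 and 604.5 bp. Regions under TCF-1 were among the widest, with 1323 and 1360 bp in KO lists, against 1119.5 and 1133 bp in EV lists.

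Chromosomes differed in how much was shared. Chromosomes 1, 10 and 15 had 37.3%, 35.4% and 36.2% of their regions in all 4 lists and chromosome 16 had 38.1%, whereas the other chromosomes ranged from 43.7% to 51.7%. KO-only shares ran from 7.65% on chromosome 10 to 11.3% on chromosome 3. EV-only shares were highest on chromosomes 10 (1.46%) and 1 (1.31%), where Lgr5, Dyrk2, Ptbp1, Catspere1 and Ifi202b lie. DNA copy number of the line was not analysed here.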

How the data were processed

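SMC1, CTCF, NIPBL, H3K27ac and TCF-1 were mapped by chromatin immunoprecipitation and paired 38 and 37 base reads, per the labels' protocols. Bowtie2, MACS2, bedtools and mm10 are named in the submitters' processing notes, with version, settings and read depth not given in the sources used here. The deposited SMC1, CTCF and TCF-1 lists hold positions only. The deposited NIPBL and H3K27ac lists also hold the authors' −log10 q-value per peak, which was not tested here. Each sample has its own deposited list.

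Peaks were merged at a gap of 0 bp, and overlap meant at least 1 bp. A partner site was a merged region held by both lists of a condition. Genes were RefSeq protein-coding genes of GRCm38.p6, and 17492 (79.9%) of 21887 had a promoter entry. Covered length was fitted with limma 3.58.1 (trend and robust) in R 4.3.3 with Benjamini-Hochberg adjustment, after a filter on a mean of 500 bp, and list values with exact permutation tests. P-values measure only the spread between lists, which may be technical. On simulated data with 14900 genes, the fit recovered 5 of 100 genes changed by 1 on the log2 scale and 58 of 100 changed by 2, with 2 false calls. The simulated noise was independent between genes, with spreads shuffled over genes, and changes were planted only in genes of longer covered length. The setting thus differs from these lists, and the 2 false calls give no false call rate for them. Named genes were those with most regions, the densest, those nearest the top ranked regions, those with the largest called change in each direction (10 each) and members of the gene lists with at least 2 regions of a class. Other genes, among them called list members, Nedd9, Hmgn1 and the genes of the 12 regions under TCF-1, were picked with their values in view. Some genes and gene groups are not reported here. The members and lists were chosen with earlier results of these data known.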

Additional observations from a re-analysis of the deposited data

How the results depend on the processing

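Few lists, unknown depth and peak width as the only measure limit all results, and no list value can pass an exact permutation test at 2 lists a group. With equal list length, KO-only regions numbered 4163 and EV-only 2078, near 2370 and 1479 genes. With each list cut at its median peak width, there were 5022 KO-only, 538 EV-only and 25621 all-4 regions, near 3110 KO-only and 455 EV-only genes. Gene bodies alone gave 3487 KO-only and 550 EV-only genes. Shares are given for KO-only regions with KO partner lists and then EV-only regions with EV partner lists. CTCF was on 39.9% and 11.2% with a partner in either list, 31.9% and 8.36% with 50% of the merged region held, 31.4% and 16.7% at equal length, and 50.2% and 29.6% at the stricter width. H3K27ac was on 31.3% and 60.2%, 36.4% and 59.0%, 36.8% and 49.9%, and 42.9% and 65.2% under those settings. NIPBL was on 7.03% and 7.12% with either list and 7.01% and 4.46% at the stricter width, and on 5.69% of KO-only regions with 50% held and 3.44% at equal length. TCF-1 was on 0.193% and 3.17% with either list and 0.179% and 2.60% at the stricter width, and on 0.291% of KO-only regions with 50% held. A 50% partner overlap gave KO-only shares of 27.3% for H3K27ac and 1.63% for NIPBL. Widths of 300 to 500 bp gave KO-only shares of 31.2% for CTCF, 25.3% for H3K27ac and 1.61% for NIPBL, and 50.1% for H3K27ac on EV-only regions. Merging across 500 bp gave KO-only shares of 30.1%, 21.3% and 1.35% for CTCF, H3K27ac and NIPBL. Leaving out each list in turn, KO-only regions ranged from 15263 to 26201 and EV-only from 1833 to 8384, and their genes from 6651 to 9512 and from 1318 to 4778. KO-only shares ranged from 15.9% to 35.3% for CTCF, 28.9% to 36.9% for H3K27ac, 1.75% to 3.36% for NIPBL and 0 to 0.0697% for TCF-1. EV-only shares ranged from 1.72% to 9.91%, 31.2% to 60.6%, 0.692% to 2.18% and 0.203% to 0.818% for the same marks.

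The difference in peaks under CTCF of all 4 lists, −7.40 percentage points, was 0.0142 at equal list length. Counts of genes longer and shorter in KO were 28 and 13 at a pseudocount of 100 bp, 234 and 125 at 2000 bp, 1199 and 23 without centring, 161 and 81 without the filter, 40 and 29 at equal list length and 70 and 22 with gene bodies alone. Without each list in turn they ranged from 124 to 1036 and from 69 to 442, with the lone list of a group assumed to vary like the other group. Slc6a20b, at 0.94, was −0.23 with gene bodies alone. The replicate numbers, with 2 pairs only, were not taken to pair the lists (correlation of deviations 0.12 over genes and 0.049 over regions). With the replicate number as a block, 281 genes were longer and 128 shorter, all 89 and 45 calls kept, and the block changed no sign among the 12 list values. The region fit called 0 under every setting run. The cause of these changes was not tested.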
